A study of Rhamphochromis sp. 'chilingali' and Astatotilapia calliptera with 50 samples.

Results

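The comparison described here sets whole embryos of Rhamphochromis sp. 'chilingali' (RC) against whole embryos of Astatotilapia calliptera 'Mbaka' (AC) at the 22 somite stage (22ss). Its members are the 3 RC and 3 AC embryos whose labels give 22 somites, 6 of the 50 libraries analysed here. Both groups were labelled wild-type and tank-reared, and by the methods of the study the eggs of both were kept singly in water with methylene blue. The embryos of each species came from a single egg clutch, so a difference between the species cannot be told apart from a difference between the clutches. Each embryo was freed from its yolk and processed singly, which makes the embryo the replicate. The other libraries cover 4ss to 30ss in both species and 37ss in RC, and they are used here to show how the difference at 22ss stands among the other stages. Stranded polyA libraries of total RNA were read as paired ends and counted on genes, long noncoding RNAs (lncRNAs) and transposable elements (TEs).

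Somites are the paired blocks of mesoderm that form along the trunk of a vertebrate embryo, and their number is a measure of developmental age. During the same period cells of the neural crest leave the dorsal neural tube and migrate, and they later give rise to pigment cells, to the cartilage and bone of the face and to peripheral neurons and glia. In fishes these pigment cells include black melanophores, yellow to red xanthophores and reflective iridophores.

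At 22ss between 21547926 and 24152965 reads were counted on genes in the RC embryos, and between 22288450 and 22899268 in the AC embryos. TE reads came to 4.65% to 5.25% of the number of gene reads in RC and to 3.99% to 4.17% in AC. Of the defining markers of tissues listed for this comparison, only the neural crest genes foxd3 and sox10 could be matched to an entry by name, and both were expressed in all 6 embryos. Other tissues could not be checked in this way, because the tables give gene identifiers and names were available for 238 genes only. The reads of both species had been mapped to the AC genome, so a low RC value cannot be told apart from RC reads that failed to map there.

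In total 21123 genes were tested in limma on log2(normalized count + 1), a scale that understates the change of low genes. Calls needed both an adjusted p of less than 0.05 and a more than 1.5-fold difference on that scale, in either direction. Of the genes tested, 2285 (10.8%) were called, 1021 of them higher in RC (4.83%) and 1264 lower in RC (5.98%). The median absolute log2 fold change was 1.90 among the called genes and 0.28 among all genes tested. By comparison, the median SD of the log2 values within a species was 0.16 in RC and 0.21 in AC. In 2211 of the 2285 called genes the 3 RC values lay entirely outside the range of the 3 AC values, a separation that 38.9% of all genes tested showed. In whole embryos, fewer cells of a type and less RNA per cell cannot be told apart.

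**Figure D1:**
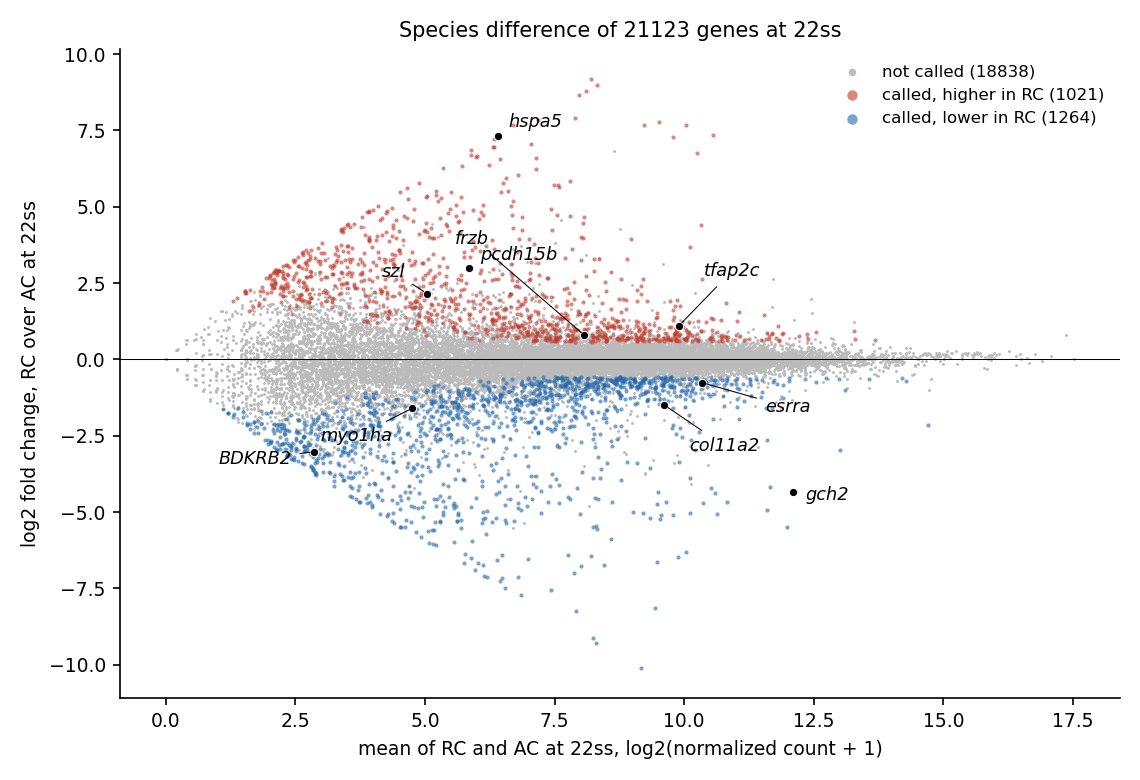
Log2 fold change of RC over AC at 22ss against mean level, log2(normalized count + 1), for the 21123 genes tested. Red points are the 1021 genes called higher in RC, blue points the 1264 called lower, grey points the genes not called, and black points named genes such as hspa5 at 7.33 and gch2 at -4.33.

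Most of these differences were not restricted to 22ss. Of the 2285 called genes, 1563 (68.4%) had the same sign at all 7 other stages and 576 had a call of that sign at every one of the 8 stages. Only 218 (9.54%) were called at no other stage. Calls in the opposite direction numbered 58 at 4ss, 2 at 20ss and 0 at 26ss, where RC embryos of 26 somites stand beside AC embryos of 27. The sample titles give 27 somites for these AC embryos, whereas the gene values label them 26, and 27 is used here. Some genes were at or near silence in a species. With a RC mean of at least 100 normalized counts, 8 genes had no read in any AC embryo of 22ss, and 5 of these had at most 3 reads in each of the 24 AC embryos of all stages. With an AC mean of at least 100, 13 genes had no read in any RC embryo of 22ss, and 12 of these had at most 3 reads in each of the 26 RC embryos.

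Among the genes with a name, 234 were tested and 22 were called (9.40%, against 10.8% of all genes tested), 13 higher and 9 lower in RC. The names include candidates that the study had already found to differ between the species in these data, so this share is not independent. The 3 RC and the 3 AC embryos did not overlap in any of the 22, nor in 2211 of all 2285 genes called. Of the 234 named genes tested 99 showed no overlap (42.3%). The lack of overlap is therefore no further evidence for the 22 calls. In 7 of the 22 (hspa5, pcdh15b, ptpn11a, frzb, esrra, hspa12a and BDKRB2) the call held when any single embryo of 22ss was left out. The other 15 lost it in 1 to 6 of the 6 fits with an embryo left out, and these losses are given with each gene. Such a fit compares fewer embryos, so a call near the threshold can be lost whichever embryo is left out.

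**Figure D2:**
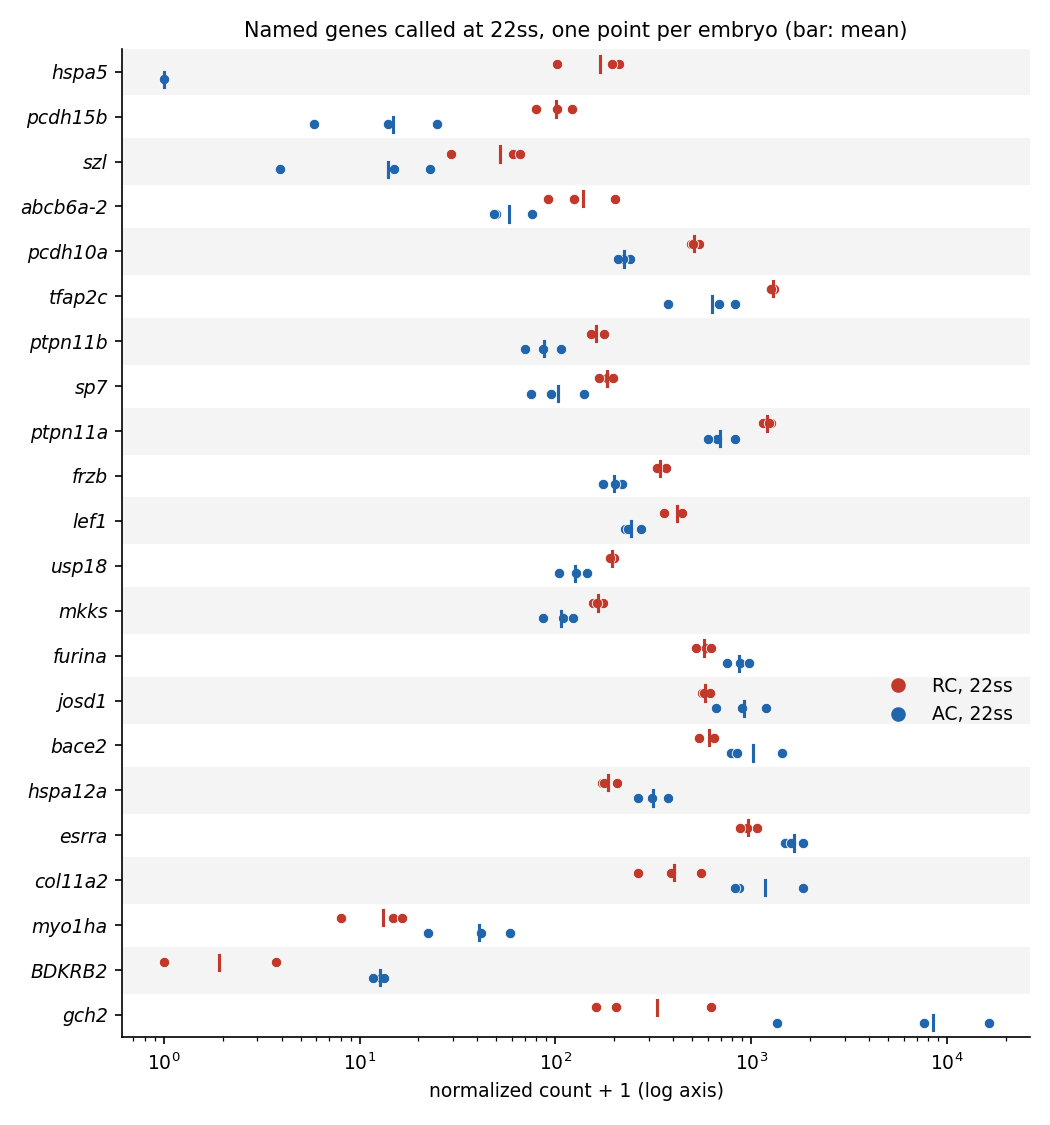
Normalized count + 1 (log axis) of the 22 named genes called at 22ss, ordered by log2 fold change, with RC embryos in red above AC embryos in blue and a bar at each mean. For every gene the 3 red points lie apart from the 3 blue points, as in 2211 of all 2285 genes called. The distance is largest for hspa5 (3 AC embryos at 0) and for gch2.

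The largest difference among the named genes in which RC was lower belonged to a pigment gene. gch2 encodes a GTP cyclohydrolase of pteridine synthesis that marks xanthophores in zebrafish. It measured 161, 621 and 204 normalized counts in the RC embryos, against 16254, 1353 and 7642 in the AC embryos. The AC embryos differed widely among themselves, and the highest RC embryo stayed below the lowest AC embryo. The log2 fold change was -4.33 (SE 1.12, adjusted p = 0.00665). Without AC replicate 1, the highest embryo, the adjusted p was 0.0614 and the call was lost. gch2 was not lower in RC throughout, and high levels were not new at 22ss. At 4ss it had 5814 and 3646 in RC, against 8448, 6027 and 314 in AC. At 10ss it had 6991, 197 and 1201 in RC, against 15797, 547 and 785 in AC. Embryos of the same species and stage thus differed widely there too. Its RC values were 1328 to 4279 at 18ss, against 88.9 to 284 in AC, and the log2 fold changes of 15ss and 18ss were 2.62 and 3.99 in the other direction. AC stood at 71.9 to 131 at 20ss, and its level at 22ss was higher by 5.94 on the log2 scale (SE 1.12, adjusted p = 0.00896). In RC the same step was 0.60 (SE 1.12, adjusted p = 0.847), and RC reached 3052 to 6050 at 37ss. The difference between the species in this step, -5.34 on the log2 scale, did not pass its own test (adjusted p = 0.434).

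Other pigment genes differed less. The study drew its candidate lists from genes that it had found to differ between the species at some stage of these same data. The shares called in these lists are therefore not those of independently chosen genes. Among 56 genes that the study chose as pigmentation candidates, mkks, pcdh10a, abcb6a-2 and szl were called higher in RC and gch2 and bace2 lower. The 6 calls are 10.7% of the list, against 10.8% of all genes tested, and its median log2 fold change was 0.08, against -0.014 over all genes tested. abcb6a-2, a member of the ABC transporter family, had 90.4, 199.5 and 123 normalized counts in RC, against 74.6, 48.5 and 47.5 in AC (log2 fold change 1.22, SE 0.34, adjusted p = 0.0124). It was lost without RC replicate 2 (adjusted p = 0.120) and also without AC replicate 2 or AC replicate 3. bace2 is an aspartyl protease that in zebrafish is needed for normal melanophore shape. It had 537, 637 and 646 in RC, against 1432, 785 and 840 in AC (log2 fold change -0.70, SE 0.21, adjusted p = 0.0183), and lost its call without AC replicate 1 (adjusted p = 0.216) or RC replicate 1 and in a fit of the 22ss embryos alone (adjusted p = 0.0742). mkks, a chaperonin-like gene linked to Bardet-Biedl syndrome in humans, averaged 163 ± 9.35 in RC and 105 ± 18.5 in AC (SD, n = 3 each), with a log2 fold change of 0.64 (SE 0.17, adjusted p = 0.00744). Its call was lost without AC replicate 3 (adjusted p = 0.0740) and with 22ss fitted alone (adjusted p = 0.0507). pcdh10a, a cell adhesion protein of the protocadherin family, had 540, 490 and 505 in RC, against 239, 221 and 208 in AC. All RC embryos were above the AC embryos by a clear margin (log2 fold change 1.2, SE 0.38, adjusted p = 0.0319). The adjusted p was between 0.0634 and 0.0895 when any embryo, RC or AC, was left out. In these fits the log2 fold change stayed at 1.15 to 1.25.

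None of the 16 melanophore genes tested was called in limma, 0 in edgeR and 1 in DESeq2. In limma 1 of them had an unadjusted p under 0.05, against 26.3% of all genes tested. mitfa, the master regulator of melanophore fate, had 22.1, 23.3 and 23.7 normalized counts in RC, against 131, 37.8 and 45.6 in AC. The groups did not overlap, yet the log2 fold change of -1.37 (SE 0.65) missed the threshold at an adjusted p of 0.169. tyrp1a, a melanin synthesis enzyme, had 592, 741 and 944 in RC, against 614, 269 and 362 in AC, and the groups overlapped (log2 fold change 0.93, SE 0.49, adjusted p = 0.224). The melanophore genes were more even among the RC embryos than among the AC embryos. The median SD of their log2 values was 0.20 within RC and 0.50 within AC. AC replicate 1 was the highest of the 3 AC embryos in 14 of the 16 genes, and AC replicate 2 the lowest in 14. dct, another enzyme of melanin synthesis, shows this order with 663, 200 and 281 normalized counts in AC, while RC had 290, 364 and 477. The iridophore receptor kinase ltk was low in both species, at 3.69, 16.2 and 11 in RC and 20.9, 59.1 and 110 in AC (log2 fold change -2.42, SE 0.96, adjusted p = 0.0902).

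The study chose 45 neural crest candidates, also from genes that it had found to differ between the species. Of these 45, tfap2c and lef1 were called higher in RC and none lower (4.44%, against 10.8% of all genes tested). tfap2c encodes an AP-2 transcription factor that acts with tfap2a in neural crest induction in zebrafish. It measured 1292, 1308 and 1255 normalized counts in RC, against 686, 376 and 821 in AC. The RC embryos were close to each other and all above the AC embryos (log2 fold change 1.11, SE 0.36, adjusted p = 0.0361). RC also had the higher mean at 18, 26 and 30 somites, but at 15ss the log2 fold change was -1.05, and at 20ss RC had 579 to 842 against 646 to 897 in AC. lef1, a nuclear effector of Wnt signalling, had 441, 444 and 358 in RC, against 225, 234 and 272 in AC (log2 fold change 0.76, SE 0.26, adjusted p = 0.0421). Both adjusted p-values stood just under the threshold. tfap2c kept its call only without AC replicate 3 and had an adjusted p of 0.240 without AC replicate 2. lef1 lost its call when any embryo, RC or AC, was left out (adjusted p 0.0517 to 0.129), at a log2 fold change of 0.71 to 0.86. Neither gene was called in edgeR (adjusted p = 0.0508 for tfap2c and 0.0521 for lef1).

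The other neural crest genes showed smaller differences. Of 11 specifier genes, which are the transcription factors that define the crest, tfap2c alone was called (9.09%, against 10.8% of all genes tested). foxd3 had 550, 648 and 669 normalized counts in RC, against 521, 646 and 539 in AC (log2 fold change 0.13, SE 0.36). sox10 had 509, 538 and 554 in RC, against 414, 642 and 552 in AC (log2 fold change 0.02, SE 0.27), so that the RC embryos lay within the AC range. The study describes the paralogs sox10a and sox10b, and the name here does not tell which of them this entry is. Among the other stages the entry was called at 4ss alone, higher in RC (log2 fold change 4.98, adjusted p = 4.27e-15 in limma). pax3a had 894, 988 and 1008 in RC, against 1077, 1385 and 1178 in AC, without overlap, at a log2 fold change of -0.33 (SE 0.23, adjusted p = 0.398). Among 16 genes of crest migration and adhesion, 0 were called in limma, edgeR or DESeq2 fitted over all stages. In limma 4 of the 16 had an unadjusted p under 0.05, against 26.3% of all genes tested. nrg1, an ErbB receptor ligand, had 329, 273 and 262 in RC, against 339, 485 and 431 in AC. Its adjusted p was 0.0400, but its log2 fold change of -0.53 (SE 0.18) was smaller than the threshold. The fibronectin gene fn1a had 8631, 9886 and 8661 in RC, against 5935, 4577 and 6995 in AC (log2 fold change 0.65, SE 0.28, adjusted p = 0.117).

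**Figure D3:**
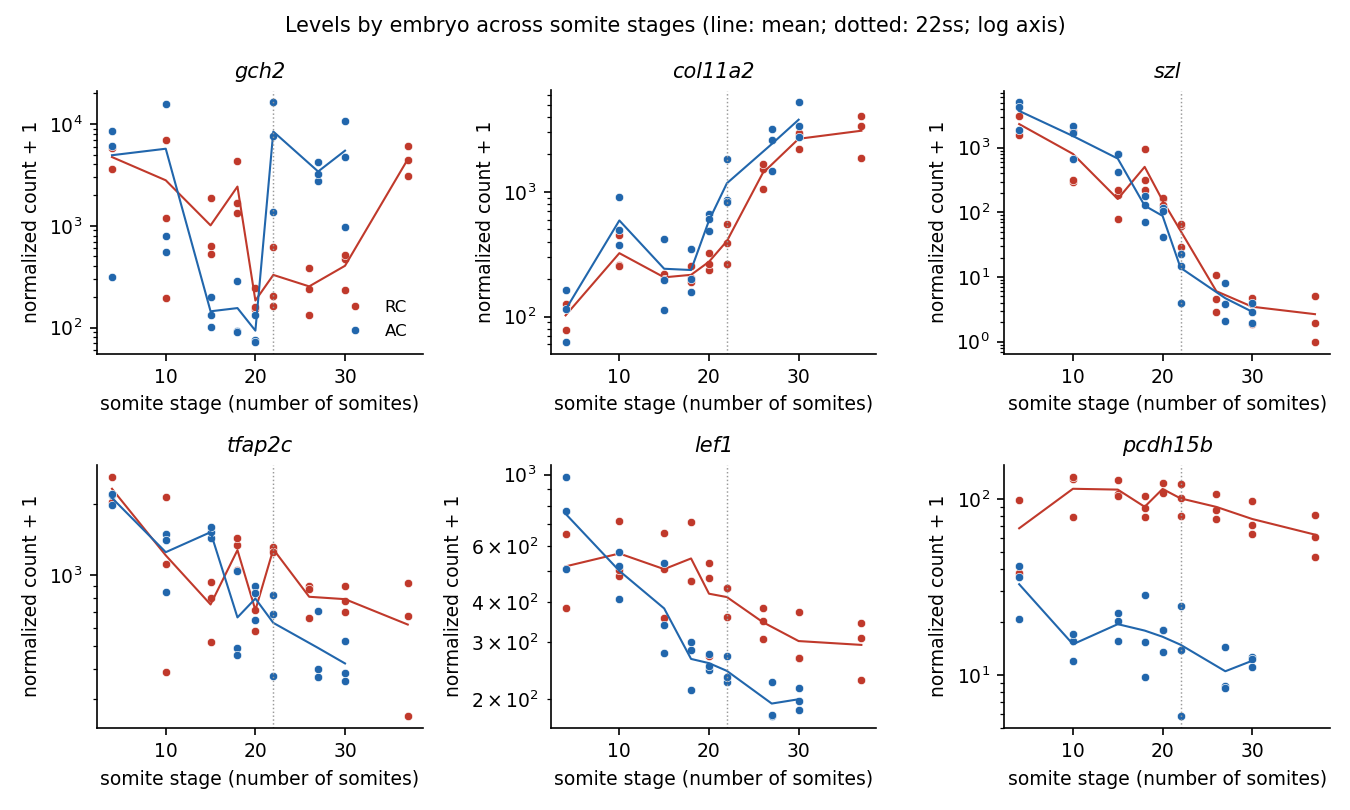
Normalized count + 1 (log axis) of gch2, col11a2, szl, tfap2c, lef1 and pcdh15b in every embryo by number of somites, RC in red and AC in blue, with lines through the means and a dotted line at 22ss. gch2 was high in AC from 22ss on, in RC at 18ss and 37ss, and in some embryos of both species at 4ss and 10ss. col11a2 climbed from 20ss on in both species. szl was lower at 30ss than at 4ss in both. The mean of pcdh15b was higher in RC at every stage shown for both species, with overlap of single embryos at 4ss.

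Cartilage and skeletal genes went in both directions. Among 105 genes that the study chose as candidates of cartilage and craniofacial skeleton, 5 were called higher and 4 lower in RC (8.57%, against 10.8% of all genes tested). col11a2, which encodes a chain of cartilage collagen, had 263, 390 and 555 normalized counts in RC, against 862, 1826 and 823 in AC, with no overlap (log2 fold change -1.50, SE 0.40, adjusted p = 0.00852). It lost its call without AC replicate 2, its highest embryo (-1.13, adjusted p = 0.0907), and without RC replicate 1 (adjusted p = 0.0724). The level of col11a2 climbed from 20ss on in both species. AC embryos had 487 to 669 at 20ss and 1467 to 3160 at 27ss, and RC embryos had 236 to 323 at 20ss and 1051 to 1662 at 26ss. sp7, the osteoblast transcription factor osterix, declined with stage in both species and was higher in RC at 22ss. It had 183, 166 and 196 in RC, against 93.4, 73.6 and 139.8 in AC (log2 fold change 0.87, SE 0.29, adjusted p = 0.0409). sp7 kept its call only without AC replicate 3 (adjusted p up to 0.216, reached without AC replicate 2), and neither edgeR (adjusted p = 0.0614) nor a fit of 22ss alone (adjusted p = 0.0521) called it. Among the other stages limma called sp7 higher in RC at 26ss (log2 fold change 1.15, adjusted p = 0.00564) and 30ss (1.70, adjusted p = 5.81e-05) alone.

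Further genes of this list act in signalling. ptpn11a and ptpn11b encode copies of the phosphatase Shp2, which transmits growth factor signals, and both were higher in RC. ptpn11a had 1257, 1140 and 1225 normalized counts in RC, against 664, 823 and 598 in AC (log2 fold change 0.81, SE 0.13, adjusted p = 2.16e-05). ptpn11b had 151, 176 and 152 in RC, against 106, 68.8 and 85.6 in AC (log2 fold change 0.89, SE 0.29, adjusted p = 0.0323). ptpn11a was called in the same direction at 6 of the 7 other stages and in every fit with an embryo left out. The ptpn11b call held only without AC replicate 1, and the adjusted p was 0.153 without AC replicate 2. furina, a proprotein convertase, averaged 573 ± 50.6 in RC and 865 ± 115 in AC (SD, n = 3 each), at a log2 fold change of -0.59 (SE 0.20, adjusted p = 0.0492). usp18, a protease that removes the ubiquitin-like modifier ISG15, averaged 194 ± 4.30 in RC and 125 ± 20.4 in AC (log2 fold change 0.64, SE 0.22, adjusted p = 0.0452). Both lost their call in 5 of the 6 fits with an embryo left out, with adjusted p up to 0.178 for furina and 0.191 for usp18 (each without AC replicate 3). They kept it only without AC replicate 2. With the replicate numbers as a block furina had an adjusted p of 0.0513 and usp18 of 0.0527, and both calls were also lost with a pseudocount of 0.1 and with no filter on low values, and that of furina with a pseudocount of 10, where its fold change fell short. The deubiquitinase gene josd1 (log2 fold change -0.61, SE 0.18, adjusted p = 0.0220) and the class I myosin gene myo1ha (-1.60, SE 0.45, adjusted p = 0.0134) were lower in RC. josd1 reached an adjusted p of 0.210 without AC replicate 1 and also lost its call without RC replicate 1 or 2 or AC replicate 3 and with 22ss fitted alone (adjusted p = 0.0775). The call of myo1ha needed both AC replicate 1 and RC replicate 2 (adjusted p = 0.103 without the RC embryo), and it was lost with 22ss fitted alone (adjusted p = 0.0584).

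Secreted regulators of Wnt and BMP signalling, frzb and szl, were called higher in RC. frzb, an extracellular Wnt antagonist, had 329, 365 and 328 normalized counts in RC, against 217, 173 and 202 in AC (log2 fold change 0.79, SE 0.16, adjusted p = 0.000394), and it was called in the same direction at 5 of the 7 other stages. Of the 5 Wnt pathway genes with a name, frzb and lef1 were called (40%, against 10.8% of all genes tested). The call of lef1 was lost when any embryo was left out. All 5 had a log2 fold change above 0, as did 10185 of the 21123 genes tested. The full list has 73 members, so these 5 do not describe the pathway. szl, which encodes sizzled, an inhibitor of the proteases that cleave the BMP antagonist chordin, had 60, 64.8 and 28.3 in RC, against 13.9, 2.91 and 21.9 in AC. The groups did not overlap, although RC replicate 3 came near the highest AC embryo (log2 fold change 2.15, SE 0.68, adjusted p = 0.0298). Without AC replicate 2, the lowest embryo, the log2 fold change of szl was 1.41 (adjusted p = 0.247), and the call was also lost without RC replicate 1 or 2, in edgeR (adjusted p = 0.0963), with a pseudocount of 10 and in a fit of the 22ss embryos alone. At 15ss the log2 fold change of szl was -2.15 (adjusted p = 0.0146 in limma). Between 4ss and 30ss levels of szl fell steeply in both species, but not evenly. In RC they were 77.2 to 221 at 15ss and 225 to 972 at 18ss. In AC they were 40.6 to 118 at 20ss and lower by 2.86 on the log2 scale at 22ss (SE 0.68, adjusted p = 0.0427). In RC they were 127 to 165 at 20ss, and the difference of 22ss from 20ss was -1.63 (SE 0.68, adjusted p = 0.256). Of the 8 BMP and TGF-beta genes with a name, szl alone was called (12.5%, against 10.8% of all genes tested). bmp2b was uneven among the AC embryos, with 202, 198 and 190 in RC, against 606, 142 and 433 in AC (log2 fold change -0.76, SE 0.39, adjusted p = 0.216).

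Genes nearest the regions that the study lists as islands of selection were called more often than genes at large. Of 181 such genes 107 passed the filter on low values, and 12 of these were called higher and 13 lower in RC, together 23.4% against 10.8% of all genes tested. The median log2 fold change of the 107 was -0.018. The identity of only 36 of them is known by name here, and 4 of these 36 were called (11.1%). hspa5, named after an ER chaperone, had 101, 210 and 193 normalized counts in RC, against 0, 0 and 0 in AC, so that RC was at least 57.5-fold higher with AC set at 3 reads in each library. Across all stages the 24 AC embryos had between 0 and 6.14 normalized counts of hspa5. Genes of this chaperone family resemble each other, and how uniquely mapped reads divide among them was not tested. pcdh15b, a protocadherin of sensory hair cells, had 101, 79 and 121 in RC, against 12.9, 4.85 and 23.8 in AC (log2 fold change 2.98, SE 0.38, adjusted p = 4.12e-07). It was called in the same direction at 6 of the 7 other stages. The bradykinin receptor gene BDKRB2 was low in both species, with 0, 0 and 2.74 in RC and 11.9, 10.7 and 12.4 in AC (log2 fold change -3.02, SE 0.71, adjusted p = 0.00284). hspa12a, a distant relative of the HSP70 chaperones, had 172, 176 and 206 in RC, against 373, 263 and 310 in AC (log2 fold change -0.75, SE 0.19, adjusted p = 0.00419). A gene outside these lists, the orphan nuclear receptor gene esrra, had 1063, 955 and 877 in RC, against 1839, 1484 and 1602 in AC (log2 fold change -0.77, SE 0.19, adjusted p = 0.00518). In both hspa12a and esrra all RC embryos were below all AC embryos, and the calls held without any single embryo.

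A further list of 20 genes held some that the study discusses, such as sox10, prdm1a and dicer1, and others, such as tfap2c, that its text does not mention. Of these 20 genes, 18 were found and tested, and limma called tfap2c (5.56%), edgeR 0 and DESeq2 2 of them. Their median log2 fold change was -0.06. The other 17 were not called in the main limma fit. The largest differences among them were those of the potassium channel gene kcnk18 (29.5, 9.11 and 17.3 in RC, against 33.8, 38.8 and 42.8 in AC, log2 fold change -1.14, SE 0.51, adjusted p = 0.144) and of the folate enzyme gene aldh1l1 (1991, 1864 and 2226 in RC, against 1382, 1141 and 1041 in AC, log2 fold change 0.78, SE 0.42, adjusted p = 0.240). Neither gene overlapped between the species, and both calls depended on the setting. kcnk18 was called lower in RC by DESeq2 (-1.04, adjusted p = 0.0434) and with a pseudocount of 10 (-0.82, adjusted p = 0.00716). aldh1l1 was called higher with 22ss fitted alone in limma (adjusted p = 0.00697) and in DESeq2 (adjusted p = 6.08e-07). DESeq2 on the 22ss embryos alone also called sema3fa higher (0.587, adjusted p = 2.59e-05). In limma chsy1 was called lower without AC replicate 2 (-0.588, adjusted p = 0.0144). cnbpa, chsy1, dicer1, arl6ip1, nusap1, glrx2, prdm1a, pax3a and tspan37 had values below 0, and fgf3, fgf8a, foxd3, sox10, erbb3b and sema3fa values above 0. The signs of fgf3, sox10 and tspan37 turned with the setting. The lists of the retinoic acid, FGF and hedgehog pathways, skeletal muscle, heart, epidermis, brain regions, segmentation, hatching gland, proliferation and metabolism held 1 to 4 named genes each, and 0 were called in limma, edgeR or DESeq2. Each of these fits covered all stages. Among the genes of these lists noto, a notochord transcription factor, had 218, 210 and 218 in RC, against 105, 102 and 113 in AC. The species were clearly apart at 22ss (log2 fold change 1.01). The adjusted p of 0.113 in limma rests on the spread pooled over all stages, so the missing call does not show that a difference at 22ss is absent. The list of stress genes held hspa5 alone and the immune list usp18 alone. No hox, blood, liver, lens or retina gene of the lists could be matched by name, so these tissues are not described.

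The levels of col11a2, sp7 and szl moved with stage in both species, and a description of all genes that do so was added after the values had been seen. Genes were taken by the contrast of the 30ss with the 20ss embryos in the main model, whose pooled spread also includes the 22ss embryos. In both species 1173 genes were called higher at 30ss than at 20ss, and 225 were called lower. Of the 1173, at 22ss 22 were called higher in RC (1.88%, against 4.83% of all genes tested) and 168 lower (14.3%, against 5.98%). Their median log2 fold change was -0.46, against -0.014 over all genes, and 78.8% were below 0. Of the 225, 29 were called higher in RC (12.9%) and 5 lower (2.22%), with a median of 0.37 and 84.0% above 0. Each set held 13 named genes. In the first, col11a2 alone was called, and the log2 fold changes of all 13 were below 0, with dcn (-0.0029), and1 (-0.012) and nr2f2 (-0.08) closest to it. In the second, szl and sp7 were called, and tyr (-0.24) and sox32 (-0.44) lay below 0 while the other 11 lay above. At other stages the median of the 1173 genes was 0.31 (4ss), -0.015 (10ss), -0.15 (15ss), -0.58 (18ss) and -0.41 (26ss). That of the 225 genes was -0.20 (4ss), 0.25 (10ss), 0.39 (15ss), 0.28 (18ss) and 0.57 (26ss). Neither shift was thus restricted to 22ss.

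The AC embryos did not share this pattern evenly. Relative to the mean of the 6 embryos, the median log2 level of the 1173 genes was -0.36, -0.22 and -0.09 in RC, against 0.14, 0.65 and -0.008 in AC. AC replicate 2 thus stood far above the other 5 embryos, and all 3 RC embryos were below all 3 AC embryos. For the 225 genes the values were 0.25, 0.13 and 0.15 in RC, against -0.18, -0.29 and -0.06 in AC. Without AC replicate 2 the median of the 1173 genes was -0.29, with 90 genes called lower in RC (7.67%, against 5.25% of all genes) and 24 higher (2.05%, against 4.01%). Without RC replicate 1 the median was -0.40, with 104 genes called lower in RC (8.87%, against 4.36%), and without AC replicate 3 it was -0.60. Of the 225 genes, 17 were called higher in RC without AC replicate 2 and 17 without RC replicate 1 (7.56% each). By the somite totals of the study, 22ss is also a smaller share of somite formation in RC than in AC. This offset, differences in developmental age within 22ss and other differences between the species cannot be told apart here.

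**Figure D4:**
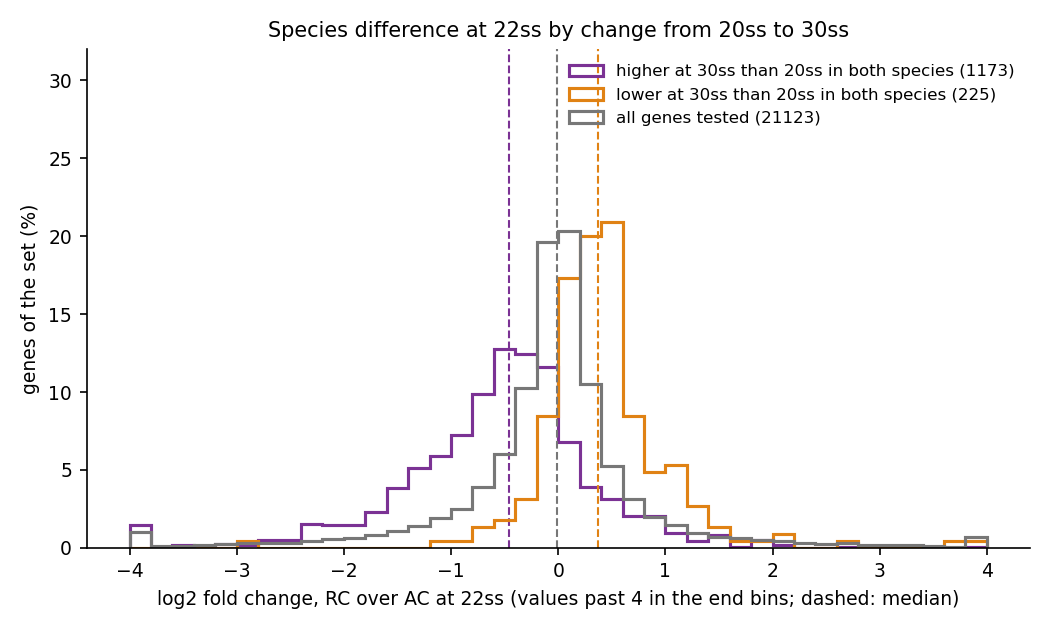
Log2 fold change of RC over AC at 22ss for 1173 genes called higher at 30ss than at 20ss in both species (purple), 225 genes called lower (orange) and all 21123 genes tested (grey), as percent of each set, with dashed lines at the medians of -0.46, 0.37 and -0.014. The purple curve lies to the left of the grey one and the orange curve to its right.

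Few genes changed between 20ss and 22ss within a species by the test used here, in contrasts that were also added after the values had been seen. In RC 219 genes were called higher at 22ss (1.04%) and 19 lower (0.0899%), and in AC 96 were higher (0.454%) and 9 lower (0.0426%). In total 10 genes were called higher in both species, which is 4.57% of the RC genes and 10.4% of the AC genes, and none was called in opposite directions. The genes called higher in RC had a median change of 2.36 in RC and 0.71 in AC, and the genes called higher in AC a median change of 0.90 in RC and 4.49 in AC. These values describe lists that were chosen on them. The difference between the species in this change passed its own test in 12 genes (0.0568%), 10 of them with the larger change in RC. The named genes that changed were tgfb3 in RC (330, 378 and 386 at 22ss, against 268, 207 and 240 at 20ss, log2 change 0.62, SE 0.16, adjusted p = 0.0480) and, in AC, gch2, szl and tfr1a-like (3476, 979 and 2259 at 22ss, against 866, 850 and 822 at 20ss, log2 change 1.22, SE 0.26, adjusted p = 0.0168).

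A direct test compared the species difference at 22ss with its mean over the 7 other stages. It was passed by 28 genes (0.133% of those tested, while 7.88% had an unadjusted p under 0.05), of which 17 lay above 0 and 11 below, and 22 of the 28 were also called at 22ss. None of the 28 has a name here. In the 17 genes the level in RC at 22ss stood above the mean of the adjoining stages by 0.44 to 1.98 on the log2 scale (median 0.92), against -0.49 to 0.21 in AC (median -0.05). In 14 of them each RC embryo of 22ss exceeded every RC embryo of the 7 other stages. Among all genes tested 63 showed this pattern in RC and 10 in AC. The test that chose the 17 genes used these same values, so they describe the list and are no further test of it. ENSACLG00000005855 had 583, 657 and 802 normalized counts in RC, against 79.5, 105 and 90.3 in AC (log2 fold change 2.88, SE 0.24, adjusted p = 2.74e-11). Its RC level climbed with stage to 278 to 547 at 20ss, was highest at 22ss and stood at 375 to 388 at 26ss, while AC stayed between 68.3 and 161 from 10ss to 30ss. ENSACLG00000025792 had 33.2, 19.2 and 21.9 in RC, against 0.994, 0 and 0 in AC. In RC it was at most 1.11 before 22ss and 21.5 to 39.4 at 26ss, and in AC it never exceeded 2.09.

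The 11 genes below 0 were likewise chosen by their values at 22ss. In them the AC level at 22ss exceeded that at 20ss by a median of 2.25 on the log2 scale, and the RC level by a median of 0.11. ENSACLG00000024371 had 2.77, 3.04 and 5.48 normalized counts in RC, against 318, 1279 and 160 in AC (log2 fold change -6.45, SE 0.68, adjusted p = 5.49e-09). AC was at 4.85 to 48.3 at 20ss, and RC reached 221 to 601 at 26ss, so that both species had high levels by then. ENSACLG00000027394 had 1.84, 3.04 and 0.913 in RC, against 293, 21.3 and 167 in AC (log2 fold change -5.21, SE 0.97, adjusted p = 0.000180), and RC reached 54.5 to 103 at 37ss. Its log2 fold change was also -4.11 at 26ss and -3.87 at 30ss. The number of genes past this test depended on single embryos. It was 10 without RC replicate 1, 14 without RC replicate 2, 15 without AC replicate 1 and 48 without AC replicate 2.

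The lncRNAs differed more than the genes. Of 1087 lncRNAs tested 391 were called (36.0%), 228 higher in RC (21.0%) and 163 lower (15.0%). The median absolute log2 fold change was 1.1 over all lncRNAs and 2.66 over the called ones, and the median SD within a species was 0.43 in RC and 0.56 in AC. The median log2 fold change of all lncRNAs was 0.12 as deposited and -0.04 after quantile normalization, which gave 211 higher and 190 lower. A total of 330 of the 391 calls (84.4%) had the same sign at all 7 other stages and 15 were called at no other stage. With limma 0 lncRNAs departed at 22ss from the mean of the other stages (79 at an unadjusted p under 0.05, or 7.27%).

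The lncRNAs with the largest differences were near silent in a species. LOC113027238 had 815, 754 and 728 normalized counts in RC, against 0, 0 and 0 in AC, which makes RC at least 263-fold higher with AC set at 3 reads in each library. LOC113027603 had 0, 0 and 0 in RC, against 1105, 1041 and 1100 in AC, which makes RC at least 379-fold lower. The embryos of the 2 species did not overlap in either, as in 46.6% of all lncRNAs tested. LOC113011092, LOC113018035 and LOC113024599 were also at 0 in all 3 RC embryos, and RC was at least 99.5-fold, 30.6-fold and 22.1-fold lower. LOC113030842 had 1867, 2079 and 203 in RC, against 5.95, 0 and 0.952 in AC (log2 fold change 8.60, SE 0.99, adjusted p = 7.55e-09), so that RC replicate 3 was the lowest RC embryo and still above AC. LOC113027857 had 7.4, 4.06 and 2.74 in RC, against 533, 469 and 806 in AC (log2 fold change -6.76, SE 0.49, adjusted p = 1.31e-13). The 12 lncRNAs with the largest differences, these and LOC113023236, LOC113030339, LOC113020048, LOC113011279 and LOC113006479, were called in the same direction at all 7 other stages.

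**Figure D5:**
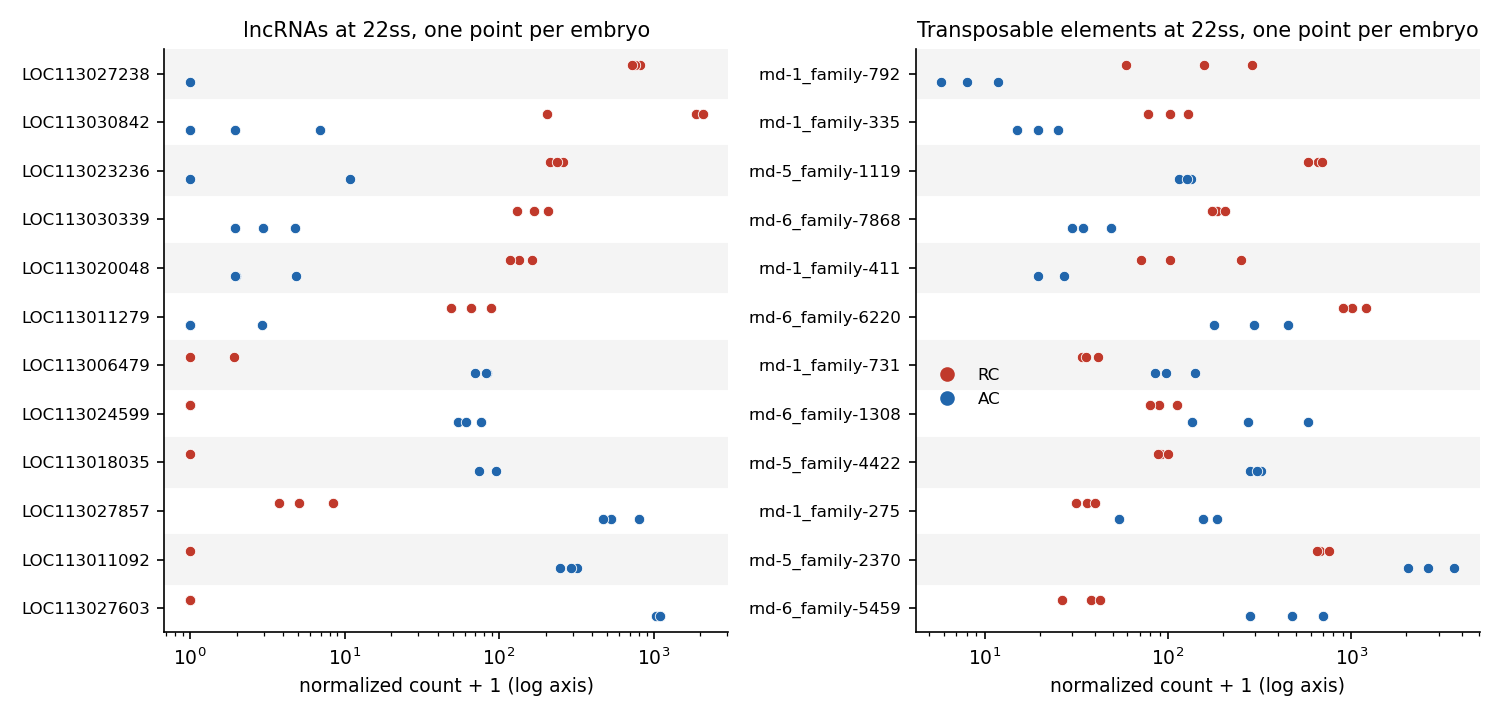
Normalized count + 1 (log axis) in each embryo of 22ss of 12 called lncRNAs (left panel) and 12 called TEs (right panel), RC in red above AC in blue. These had the largest log2 fold changes per direction, at a mean of at least 20 (lncRNAs) or 100 (TEs) in the higher species. LOC113027238 is at 0 in the 3 AC embryos and LOC113027603 at 0 in the 3 RC embryos. The groups overlap in none of those shown, and they also lie apart in 356 of all 391 called lncRNAs and 177 of all 180 called TEs.

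TEs are repeated sequences that can move in the genome, and their reads were counted per family with reads that map to several places. Of 1503 TEs tested 180 were called, 123 higher in RC (8.18%) and 57 lower (3.79%). After quantile normalization the counts were 112 and 76, while the median log2 fold change of all TEs was 0.03 as deposited and -0.04 after that step. Of the 180 calls 153 (85.0%) had the same sign at all 7 other stages. With limma 0 TEs departed at 22ss from the mean of the other stages (99 at an unadjusted p under 0.05, or 6.59%). The normalized counts of all TEs tested summed to 1010794, 1125339 and 1154853 in RC, against 889998, 903322 and 918438 in AC, and the mean of RC was 1.21 times that of AC. These sums rest on the scaling of the TE table itself.

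Unclassified repeats made up much of the difference in these sums. Their 765 entries summed to a RC mean of 589014 ± 69862 and an AC mean of 442473 ± 13026 (SD, n = 3 each), with 65 called higher (8.5%, against 8.18% of all TEs) and 33 lower (4.31%, against 3.79%). A single entry, rnd-4_family-14, accounted for 23.8% of the net difference of all TEs. It had 44330, 84570 and 88408 normalized counts in RC, against 21140, 25701 and 32350 in AC (log2 fold change 1.41, SE 0.30, adjusted p = 0.000696). rnd-5_family-3851 accounted for another 16.1%, with 23618, 55584 and 57659 in RC, against 13700, 14194 and 15971 in AC (log2 fold change 1.54, SE 0.35, adjusted p = 0.00142). RC replicate 1 was the lowest RC embryo in both entries, and the species did not overlap, as in 38.7% of all TEs tested.

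Among classified elements, DNA transposons had 30 higher and 12 lower calls among 432 entries, which is 6.94% and 2.78%, against 8.18% and 3.79% of all TEs tested. LINEs, which are retrotransposons without terminal repeats, had 15 higher and 2 lower among 204 entries (7.35% and 0.980%). Both classes thus had no larger share of calls than TEs at large. LTR elements, the retrotransposons with terminal repeats, had 12 higher and 10 lower calls among 70 entries (17.1% and 14.3%). Within LINEs, 7 of 57 Rex-Babar entries were called, each of them higher in RC, and the summed level of the 57 was 31849, 31739 and 30443 in RC, against 27246, 25955 and 26643 in AC. Gypsy, an LTR family, had 8 calls in each direction among 34 entries. ERV1, another LTR family, had 2 higher and 1 lower among 10. By comparison, 123 of all 1503 TEs tested were called higher in RC (8.18%) and 57 lower (3.79%). The TEs with the largest differences included rnd-5_family-1119, an L1-Tx1 LINE with 655, 688 and 579 in RC, against 114, 133 and 126 in AC (log2 fold change 2.35, SE 0.24, adjusted p = 2.89e-09). They also included rnd-6_family-5459, an ERV1 element with 36.8, 41.6 and 25.5 in RC, against 701, 278 and 472 in AC (log2 fold change -3.69, SE 0.44, adjusted p = 5.83e-08). Both were called in the same direction at all 7 other stages. rnd-1_family-792, an unclassified repeat, had 58, 157 and 286 in RC, against 7, 10.8 and 4.81 in AC (log2 fold change 4.09, SE 0.72, adjusted p = 5.64e-05). rnd-6_family-1308 had 110, 88.3 and 79.3 in RC, against 581, 134 and 273 in AC (log2 fold change -1.58, SE 0.44, adjusted p = 0.00922), was called at no other stage and lost its call without AC replicate 1 (adjusted p = 0.125).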

How the data were processed

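Single whole embryos of RC and AC were sequenced, and the 6 embryos of 22ss were compared within 47 embryos of 16 groups from 4ss to 30ss. According to the methods of the study, Trim Galore was used for trimming, STAR for mapping to the AC genome and HTSeq for counts of reads with a unique position, and TEs were counted with TEcount including reads that map to several places. The signal values in the tables are counts normalized by the median of ratios of DESeq2, as deposited by the authors, 1 table each for genes, lncRNAs and TEs. Every value above 0 was a whole number of reads times a step of its library (100% within 0.05 reads), which gave the depths. A limit of 3 reads was used where 0 were counted, and it covers counting error only. The 17 columns of group means in the gene table were not used.

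Values were tested in limma 3.58.1 (R 4.3.3) on log2(normalized count + 1), with a trend of variance on level, for features that reached 10 normalized counts in 2 or more embryos, and adjusted by Benjamini-Hochberg within each comparison. The p-values measure the spread between single embryos of 1 clutch per species. In the main model this spread was pooled over the 16 groups of all stages. An SE or a lost call can therefore reflect spread at stages other than 22ss. The same model held the test of 22ss against the other stages and the steps from 20ss. Alternatives were pseudocounts of 0.1 and 10, no filter, quantile normalization, a replicate block, 22ss fitted alone, other fold thresholds, edgeR 4.0.16 and DESeq2 1.42.0 on recovered reads, and the omission of each embryo. The model was tested on simulated counts. Names come from the study's supplementary tables. The genes described include up to 12 called named genes with the largest difference per direction (mean of at least 100 in the higher species). They also include up to 4 called members per list and direction and the list of 20 genes that the study discusses in part. Further features are 6 genes per direction of the departure test. Per direction 6 called lncRNAs (mean of at least 20) and 6 called TEs (mean of at least 100) were also taken. Features chosen by call and size separate the groups almost by choice, so their lack of overlap is no separate result. Members of lists that were not called were chosen as examples after their values were seen. The members and lists were chosen with earlier results of these data known.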

Additional observations from a re-analysis of the deposited data

Results flagged for a closer look

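The species difference at 22ss departed from the mean of the other 7 stages in 28 genes, and the change from 20ss to 22ss differed between RC and AC in 12 genes, by tests of these differences themselves in limma. A total of 9 genes passed both tests. The largest departures among called genes were those of ENSACLG00000025792 (3.19 on the log2 scale, SE 0.50, adjusted p = 0.000616) and ENSACLG00000005855 (2.22, SE 0.26, adjusted p = 9.65e-06) above 0, and of ENSACLG00000024371 (-5.65, SE 0.72, adjusted p = 4.15e-05) and ENSACLG00000027394 (-4.83, SE 1.04, adjusted p = 0.0392) below 0. A departure from this mean does not make a difference particular to 22ss. The log2 fold change of ENSACLG00000025792 was 4.54 at 26ss, and that of ENSACLG00000027394 was -4.11 at 26ss. That of ENSACLG00000005855 was 2.06 at 20ss and 2.22 at 26ss, against -2.28 at 4ss. For ENSACLG00000024371 it was -2.64 at 20ss and -1.69 at 26ss.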

How the results depend on the processing

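Under pseudocounts of 0.1 and 10, no filter, quantile normalization, 22ss fitted alone, edgeR and DESeq2 the number of genes called stayed between 1945 and 2736 (2285 as reported), and DESeq2 on the 22ss embryos alone gave 3067. Leaving out 1 embryo gave 1743 to 1956 genes, 339 to 356 lncRNAs and 141 to 152 TEs. It gave 10 to 48 genes that departed at 22ss and 9 to 22 genes whose change from 20ss differed, with 48 and 22 reached without AC replicate 2. An absolute log2 fold change above 1 left 93 TEs. The replicate numbers did not pair the embryos (correlations of -0.057, -0.087 and -0.026 between same-numbered embryos over genes). A replicate block gave 2302 genes, 391 lncRNAs and 181 TEs, and 28 and 12 genes for the departure and the change. Among single features and settings, 1052 values kept direction and call, 75 lost a call, 6 gained one and 10 turned sign. The log2 fold change of fgf3 was -0.0053 without RC replicate 1 and -0.16 without AC replicate 1, and up to 0.35 without AC replicate 2. That of sox10 was -0.012 without RC replicate 3, -0.16 without AC replicate 1, -0.028 in edgeR and -0.0085 in DESeq2, and up to 0.16 without AC replicate 2. That of tspan37 was 0.023 after quantile normalization, 0.10 without RC replicate 1, 0.016 without RC replicate 2 and 0.12 without AC replicate 3, and down to -0.18 without RC replicate 3. Their causes were not tested. The block also ended the calls of furina and usp18 and no other call among the features named.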
